A study of Mus musculus with 23 samples.

Results

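In the mouse, the lacrimal gland (LG) supplies water and proteins to the tear film. The harderian gland (HG), which lies behind the eye in the same orbit, supplies lipid. Both grow from the conjunctival epithelium, and at embryonic day 16.5 (E16.5) they are still branching buds that make neither secretion in quantity. The comparison described here asked how the difference between LG and HG in the adult glands departs from the difference between their embryonic epithelia. For each gene the shift was taken as (7wLG minus 7wHG) minus (E16.5LG_E minus E16.5HG_E), so a positive shift means that the gene leaned further towards LG in the adult. It used 11 of the 23 arrays of the series.

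The 4 groups were whole lacrimal gland at 7 weeks (7wLG, 2 arrays), whole harderian gland at 7 weeks (7wHG, 3 arrays), lacrimal epithelium at E16.5 (E16.5LG_E, 3 arrays) and harderian epithelium at E16.5 (E16.5HG_E, 3 arrays). All samples came from mice of background strain B6/CL with no treatment named. The other groups of the series were E16.5 mesenchyme of both glands, used below as a readout outside the comparison, and eyelid tissue. The labels name neither sex nor the number of animals per array, so p-values measure the spread between these arrays, which may be technical. The adult glands were whole while the embryonic tissue was epithelium, so age and tissue composition cannot be told apart. The measured Y-linked genes were detected in both epithelia and in neither adult gland, so age and sex cannot be told apart either.

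Levels are log2 of the background-subtracted array signal minus the 75th percentile of its array, so they compare 1 gene between arrays and not different genes. The lowest correlation between arrays of 1 group was 0.971 in adult LG, 0.959 in adult HG, 0.985 in LG epithelium and 0.987 in HG epithelium. The adult LG arrays stood apart in signal, with 50.3 and 42.4 percent of spots well above background. Their 20 brightest probes held 8.14 and 9.16 percent of the total signal, and their 75th percentile lay lower than on the other arrays. As a result background itself sat at different scaled levels. The 15443 probes that were well above background on none of the 11 arrays had median levels of -5.04 in adult LG, -6.05 in adult HG, -7.05 in LG epithelium and -6.67 in HG epithelium, and a median shift of 1.44. A gene below background in several groups therefore takes a positive shift from background alone. Values with a common floor, in which every level under -2.77 was raised to that level before the fit, are given for genes whose shift moved by over 1.5 times or whose class changed with it. Adult HG replicates also differed among themselves in tear-fluid transcripts, which were low on replicate 1 and higher on replicates 2 and 3. Epithelial markers were well above background throughout (33 of 40 on every adult LG array, 36 on every adult HG array, 40 in both epithelia). Mesenchymal markers were not absent from the epithelium arrays, since 38 of 39 were well above background on every array of each epithelium.

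Of 16324 genes tested, 2950 had a higher LG-minus-HG difference in the adult (18.1 percent) and 4427 a lower one (27.1 percent), by limma's moderated test at an adjusted p of 0.05. The call was made in either direction for 7377 genes (45.2 percent), and 8435 had an unadjusted p under that threshold. The median shift over all genes was -0.15. This split moved with the scaling and the handling of dim probes: 40.0 percent of the calls were higher here, against 29.6 percent with arrays centred on their median (1473 higher and 3500 lower, median shift -0.44), 51.9 percent with another background correction and 53.5 percent with no filter on dim probes. Genes were then sorted, each difference of at least 2-fold counting as a bias. A gained bias was called in the adult and not in the embryonic epithelium, a lost bias in the epithelium and not in the adult, and a reversed bias at both ages with opposite sign, in each case with the shift itself called. A kept bias was called at both ages with the same sign. Gained genes numbered 4803 (29.4 percent), kept genes 267 (1.64 percent), lost genes 216 (1.32 percent) and reversed genes 172 (1.05 percent). The other 10866 genes (66.6 percent) were unsorted, and 2084 of these had a called shift but met no class. Because the sorting used the shift and its p-value, those values describe the sorted genes and are no further evidence for them. The leading genes named for each class were picked for arrays that did not overlap between the glands at each biased age. For those genes a lack of overlap is therefore a condition of the choice and no further evidence. Slides 2 and 3 each held 1 array of every group. The shift had the overall sign on both slides for 7352 of the 7377 called genes (99.7 percent). For the 8947 others the count needed only the same sign on both slides, not the overall sign, and was 6190 (69.2 percent). These 2 shares are therefore not the same measure. The calls rest largely on these same arrays, so this is a description.

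**Figure D1:**
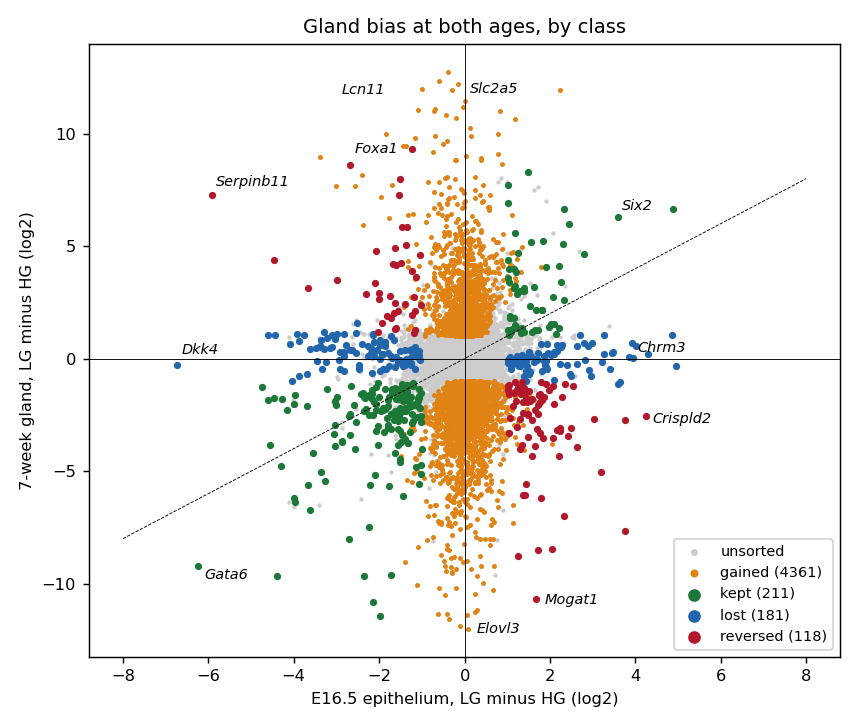
LG minus HG in E16.5 epithelium (x axis, log2) against LG minus HG in the 7-week glands (y axis, log2), 1 point per gene. Colours give the classes, limited to genes detected on all arrays of the brighter group at each biased age (numbers in the legend), and the dashed line marks equal bias at both ages. Gained genes form a vertical band that reaches past 10 in both directions, whereas kept genes lie in the lower left and upper right quadrants.

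Among the gained genes, 1944 leaned to LG in the adult (11.9 percent) and 2859 to HG (17.5 percent). Most were detected in the embryo: 1501 of the 1944 and 2567 of the 2859 were well above background on every array of both epithelia, and 385 and 231 in neither on every array. The filter on dim probes kept genes detected throughout some group of the series, and most groups were embryonic. The same share over all tested genes was not counted, so these counts are not a trait of gained genes. The brighter adult gland was well above background on every array for 1564 of the LG genes and 2797 of the HG genes.

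Secreted tear-fluid proteins were prominent among the largest gains of LG. Lcn11, a lipocalin, had levels of 11.10 and 11.46 in adult LG, -4.86, 0.93 and 1.87 in adult HG, -6.08, -6.94 and -6.59 in LG epithelium and -6.83, -3.91 and -5.90 in HG epithelium. Both adult LG arrays lay far above all others, and LG epithelium was not well above background on any array. The shift was 12.96 ± 1.81 (SE; limma adjusted p = 1.29e-05). Gm12887 had a shift of 13.14 ± 0.41 (limma adjusted p = 1.21e-13), measured against background in the other 3 groups, and of 9.75 with the common floor. Its levels were 7.03 and 6.93 in adult LG, against -6.27, -4.84 and -6.19 in adult HG, where it was not well above background, and it was at background in both epithelia too. Adult LG thus exceeded adult HG by at least 2180-fold for this probe. Gm12888 (12.92), Gm12886 (12.35) and Gm14743 (12.33) followed, but Gm14743 varied widely on the HG side, with -4.21, 4.36 and 4.98 in adult HG and -7.11, -0.26 and -4.70 in HG epithelium. Its SE was 3.36 and its limma adjusted p 0.00606.

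Slc2a5, a fructose transporter, stood apart from these because it was measured in both epithelia. Its levels were 5.79 and 6.26 in adult LG, -6.37, -6.67 and -4.65 in adult HG, -2.44, -2.41 and -2.26 in LG epithelium and -2.27, -2.17 and -1.81 in HG epithelium. The epithelia overlapped, the adult glands did not, and adult HG was below background on all arrays. Its shift was 12.21 ± 0.52 (limma adjusted p = 4.26e-12). Sval2, of the seminal vesicle antigen family (12.14 ± 1.28), which was above background in neither epithelium, and the secretoglobin Scgb1b24 (11.83 ± 1.84) completed the set. Secretoglobin genes have near-identical copies, and a probe may read more than 1 of them.

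Of 55 genes listed for lacrimal secretion 37 were measured. The shift was called higher for 23, all of them sorted as gained by LG, and lower for 1, where 18.1 percent of all tested genes were called higher and 27.1 percent lower. The list had a median of 5.90 against -0.15 over all genes. Car6, a secreted carbonic anhydrase, had 9.99 and 10.61 in adult LG, -3.15, 1.65 and 2.94 in adult HG and levels between -7.48 and -5.04 in the epithelia, none of them well above background. Scgb2b7 had a shift of 10.91 ± 1.85 (limma adjusted p = 0.000107). The remaining 13 members were not called, among them Lyz1 (1.05) and Lyz2 (1.47), the lysozymes, picked after their values were seen. The exception was Bpifa6, of the BPI fold family of secreted proteins, which was gained by HG with a shift of -10.73 ± 2.60 (limma adjusted p = 0.0026). Its levels were 2.49 and -4.80 in adult LG, where the arrays disagreed, and 10.36, 9.65 and 10.55 in adult HG. Without adult LG replicate 2 its shift was -7.08 (limma adjusted p = 0.0327). Several HG genes showed this excess on adult LG replicate 1, including Psapl1 (0.42 against -4.13 on replicate 2) and Cldn22 (2.71 against -3.64), and without that array the shift was -13.48 for Psapl1 and -14.61 for Cldn22, against -8.94 and -8.26 without replicate 2. All 4 values were called. The mean level over the list ran from 4.83 to 6.89 on the adult LG arrays, 0.10 to 1.53 on the adult HG arrays, -3.52 to -2.70 in LG epithelium and -3.50 to -1.68 in HG epithelium.

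The machinery that folds and exports secretory proteins shifted largely towards LG. All 40 listed genes were measured. The shift was higher for 34 (85 percent) and lower for 1 (2.5 percent), and 30 were sorted as gained by LG. Over all tested genes the shares were 18.1 percent higher, 27.1 percent lower and 11.9 percent gained by LG. The median shift of the list was 1.89. Bhlha15 (Mist1), a transcription factor of serous secretory cells, had levels of 7.89 and 8.48 in adult LG, -1.12, -0.92 and 0.15 in adult HG, 0.43, 0.15 and 0.56 in LG epithelium and 0.68, 0.45 and 0.70 in HG epithelium. Adult LG stood alone above the other 3 groups. Its shift was 9.04 ± 0.63 (limma adjusted p = 2.24e-09). Rab26, a small GTPase of secretory granules, was not above background in adult HG and had a shift of 7.77 ± 0.53, which was 5.53 and unsorted with the common floor. Sdf2l1, an endoplasmic reticulum chaperone cofactor, shifted by 4.45 ± 0.40. Spdef, an ETS factor of secretory cells, had a bias kept from the embryo and widened by 4.39 ± 0.38 (limma adjusted p = 3.88e-08). The exception was Rab27b, a Rab GTPase of granule docking, with a shift of -1.09 (limma adjusted p = 0.024). Derl3, listed with plasma cells and an endoplasmic reticulum degradation factor, shifted by 7.02 ± 0.50. It was the 1 higher of 8 measured plasma cell markers (12.5 percent), and 2 were lower (25 percent). Both shares were near those of all genes. The 2 lower ones were Eaf2 (-1.80, although a second probe gave 3.29) and Sdc1 (-1.27).

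The endoplasmic reticulum stress response element (ERSE), which reads CCAAT, then 9 bases of any kind, then CCACG, is the site through which the unfolded protein response raises chaperone genes. The motif and genes shown here were chosen after the values were seen. Within 250 bases before and 50 after the start site, on either strand, its letters were found in 7 of the 32 list members with a promoter in the RefSeq table (21.9 percent), against 19 of 12893 tested genes with one (0.147 percent). The share was 8 of 1503 gained LG genes (0.532 percent) and 1 of 2270 gained HG genes (0.0441 percent). Of the 7 list members, Hspa5, Hsp90b1, Calr, Creld2 and Dnajc3 were gained by LG, and Canx and Pdia6 were unsorted. The 80 bases around the match are given 5′ to 3′ on the gene's strand, with the match in capitals (build GRCm38.p6), to show the element beside each gene's shift. In Calr and Creld2 the motif reads on the opposite strand.
Hspa5, chr2:34771994-34772073, plus strand: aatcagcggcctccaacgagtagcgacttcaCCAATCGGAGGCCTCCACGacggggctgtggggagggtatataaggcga
Hsp90b1, chr10:86705608-86705687, minus strand: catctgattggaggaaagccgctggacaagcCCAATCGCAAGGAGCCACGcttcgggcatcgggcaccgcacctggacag
Calr, chr8:84847045-84847124, minus strand: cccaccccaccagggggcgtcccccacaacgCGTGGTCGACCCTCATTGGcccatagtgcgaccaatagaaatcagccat
Creld2, chr15:88819489-88819568, plus strand: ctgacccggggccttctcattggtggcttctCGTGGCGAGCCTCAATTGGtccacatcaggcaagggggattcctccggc
Dnajc3, chr14:118937796-118937875, plus strand: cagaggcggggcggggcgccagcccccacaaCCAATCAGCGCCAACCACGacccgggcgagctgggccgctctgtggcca

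Hspa5 (BiP), the main chaperone of the endoplasmic reticulum, had levels of 7.54 and 8.39 in adult LG, 6.18, 6.06 and 6.76 in adult HG, 6.79, 6.71 and 7.24 in LG epithelium and 6.87, 6.61 and 7.11 in HG epithelium. The adult glands did not overlap and the epithelia did, and the shift was 1.58 ± 0.35 (limma adjusted p = 0.0013). The other 4 shifts were 1.11 for the chaperone Hsp90b1, 1.77 for the lectin chaperone Calr, 1.80 for Creld2 and 2.20 for the co-chaperone Dnajc3. Another 2 motifs were searched in the same window. The letters of a sterol regulatory element were in 0 of 15 cholesterol synthesis and 0 of 45 lipid synthesis promoters, against 10 of 12893 (0.0776 percent), and the TCF letters CTTTGAT in 2 of 14 Wnt response promoters (14.3 percent), against 420 of 12893 (3.26 percent). A match to these letters is a description of the sequence and was not tested as a site.

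**Figure D2:**
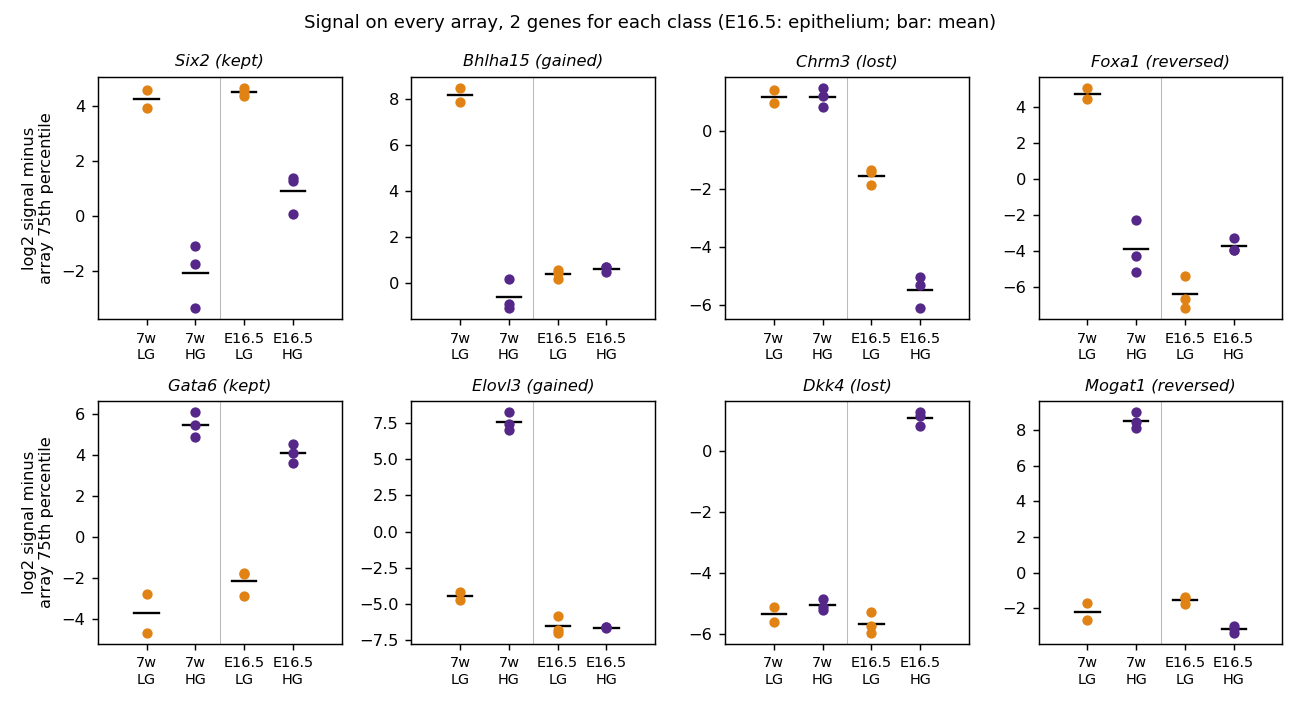
Levels on every array (y axis, log2 signal minus the array's 75th percentile) for 2 genes of each class, with 7-week LG and HG left of the line and E16.5 epithelia of LG and HG right of it. Points are arrays and bars are group means (2, 3, 3 and 3 arrays). Bhlha15 separates adult LG alone, Elovl3 adult HG alone, Chrm3 the epithelia only, and Six2 and Gata6 separate the glands at both ages.

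Lipid synthesis led the gains of HG. Elovl3, an elongase of very long fatty acids, had levels of -4.17 and -4.73 in adult LG, 7.40, 7.04 and 8.23 in adult HG, and lay between -7.00 and -5.83 in both epithelia. It was well above background only on the adult HG arrays among the 4 groups, where it was at least 1545-fold over adult LG, and its shift was -12.09 ± 0.99 (limma adjusted p = 1.63e-08). Mboat2, an acyltransferase of phospholipids, was below background in adult LG, at -3.82 and -4.46, and at 5.69, 6.36 and 6.40 in adult HG. It was measured in both epithelia, at 2.73 to 3.13 in LG and 2.16 to 2.43 in HG. Its shift was -10.95 ± 0.30 (limma adjusted p = 2.58e-14), and -9.58 and unsorted with the common floor. Sptlc3, a subunit of the enzyme that begins sphingolipid synthesis (-11.51 ± 0.53), Dgat2l6, of the diacylglycerol acyltransferase family (-10.94 ± 0.52), and Cyp4a32, of the fatty acid hydroxylase family (-11.76 ± 0.49), were well above background in adult HG and on none of the other 8 arrays. A second Sptlc3 probe gave -6.51, in the same direction. Psapl1, a prosaposin relative (-11.21 ± 1.12), Aadacl4fm1 (-11.43 ± 0.82) and Cartpt, a neuropeptide precursor (-11.44 ± 0.77), completed the 8. Cartpt had -1.08 and -2.14 in adult LG, against 9.50, 9.47 and 9.66 in adult HG.

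Over 56 measured genes of lipid synthesis the shift was lower for 40 (71.4 percent) and higher for 4 (7.14 percent). The list had a median of -3.54, and 34 were gained by HG. Over all tested genes the shares were 27.1 percent lower, 18.1 percent higher and 17.5 percent gained by HG. The elongases Elovl6 (-9.58 ± 0.41) and Elovl5 (-9.50 ± 0.44) differed little between the epithelia and widely between the adult glands. Elovl6 had 8.15, 8.73 and 9.15 in adult HG, 0.04 and -1.08 in adult LG, 3.84, 3.79 and 4.41 in LG epithelium and 3.62, 3.40 and 3.87 in HG epithelium. Cidea, a lipid droplet protein, shifted by -8.38 ± 0.59. Fasn, the fatty acid synthase (-7.44), and Pparg, the nuclear receptor of lipid storage (-7.93), both picked after their values were seen, were gained by HG as well. Higher shifts were called for Soat1 (4.37), which esterifies cholesterol, and for the elongase Elovl7 (3.77), with Elovl2 (1.35) and Lpin1 (1.21).

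Mogat1, a monoacylglycerol acyltransferase, was a reversal. Its levels were -1.70 and -2.67 in adult LG, 8.44, 8.13 and 8.98 in adult HG, -1.44, -1.73 and -1.37 in LG epithelium and -3.36, -3.005 and -3.18 in HG epithelium. LG epithelium lay above HG epithelium on every array and adult LG lay below adult HG on every array. The shift was -12.37 ± 0.67 (limma adjusted p = 7.96e-11). Scd1, a stearoyl-CoA desaturase, and Cd36, a fatty acid transporter, were the other reversals of this list, with shifts of -7.02 and -4.30.

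Cholesterol synthesis followed the same direction. All 23 listed genes were measured. The shift was lower for 19 (82.6 percent) and higher for 1 (4.35 percent, median -3.37), and 15 were gained by HG. The shares of all genes were 27.1 percent lower, 18.1 percent higher and 17.5 percent gained by HG. Sqle, squalene epoxidase, had levels of 1.08 and 1.47 in adult LG, 7.73, 7.96 and 8.52 in adult HG, 5.33, 5.28 and 5.35 in LG epithelium and 5.07, 4.61 and 4.89 in HG epithelium. Adult LG was thus the lowest group and adult HG the highest, and the shift was -7.26 ± 0.28 (limma adjusted p = 1.48e-12). Pmvk, phosphomevalonate kinase (-4.95 ± 0.34), and Hsd17b7, a sterol reductase (-4.70 ± 0.34, or -2.55 with the common floor), were lower likewise.

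Peroxisomes shorten very long fatty acids and begin ether lipid synthesis. Of 30 measured peroxisomal genes 20 had a lower (66.7 percent) and 1 a higher shift (3.33 percent, median -1.95), and 18 were gained by HG. Among all genes 27.1 percent were lower, 18.1 percent higher and 17.5 percent gained by HG. Acox2, a peroxisomal acyl-CoA oxidase, shifted by -7.65 ± 0.85. Cat, catalase, had 1.88 and 2.10 in adult LG, 5.36, 5.51 and 6.07 in adult HG and 0.93 to 1.48 over both epithelia, and the shift was -3.74 ± 0.26 (limma adjusted p = 2.27e-09). The assembly factors Pex3 (-3.45 ± 0.38) and Pex19 (-3.37 ± 0.34) changed by similar amounts. The exception was Phyh, the hydroxylase of branched fatty acids, whose LG bias was kept and widened by 3.37 (limma adjusted p = 1e-07). Porphyrin synthesis feeds the pigment stored in rodent HG. Of its 16 genes 12 had a lower (75 percent) and 1 a higher shift (6.25 percent, median -1.72), and 11 were gained by HG. The shares of all genes are those given for the peroxisomal genes. Abcg2, a porphyrin and drug exporter, had 0.18 and -0.66 in adult LG, 6.54, 6.57 and 6.73 in adult HG, 2.20, 2.28 and 2.49 in LG epithelium and 2.60, 2.46 and 2.76 in HG epithelium. Its shift was -6.56 ± 0.26 (limma adjusted p = 1.6e-12). Of the enzymes, Alad shifted by -3.31 ± 0.24, and Tspo, a mitochondrial outer membrane protein, by -3.10 ± 0.28. Fech, which inserts the iron to make haem, was not called (-0.15).

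**Figure D3:**
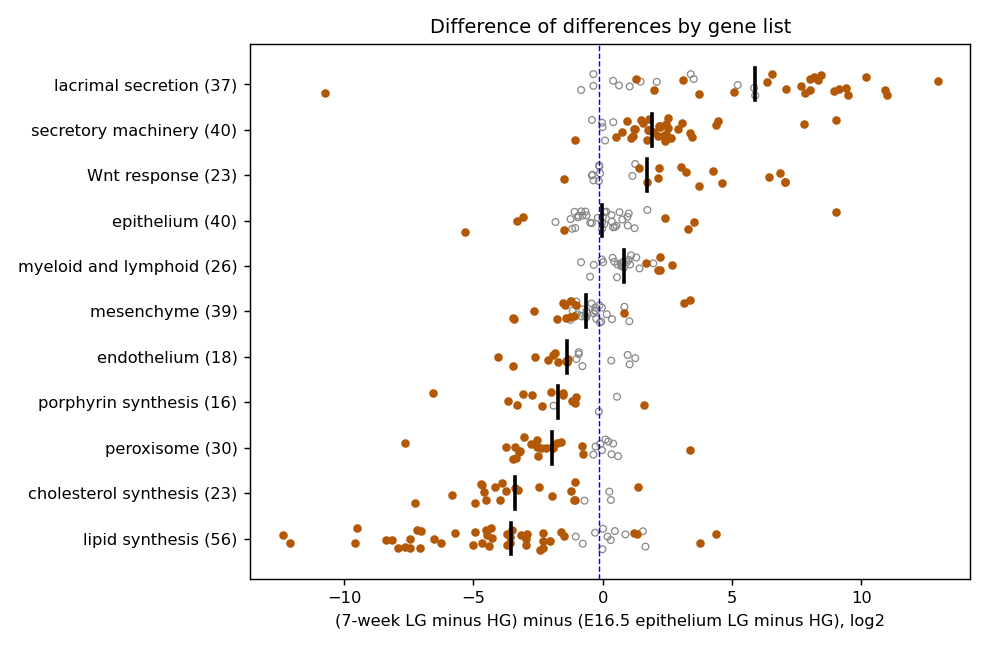
Shift, (7-week LG minus HG) minus (E16.5 epithelium LG minus HG), in log2 units (x axis) for the measured members of 11 gene lists (numbers in brackets). Filled points have a called shift, open points do not, black bars are list medians and the dashed line is the median of all genes at -0.15. Lacrimal secretion has its median at 5.90 and lipid synthesis at -3.54.

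A bias kept from embryo to adult was found for 88 genes on the LG side (0.539 percent) and 179 on the HG side (1.1 percent). Transcription factors were among them. Six2, a homeobox factor of head and kidney mesenchyme, had levels of 3.93 and 4.61 in adult LG, -1.08, -1.71 and -3.34 in adult HG, 4.51, 4.37 and 4.65 in LG epithelium and 0.10, 1.29 and 1.39 in HG epithelium. The glands did not overlap at either age. Its bias widened by 2.72 ± 0.66 (limma adjusted p = 0.00257), and a second probe gave 2.18.

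Gata6, a zinc finger factor of several endoderm-derived and other epithelia, was the counterpart on the HG side. Its levels were -2.77 and -4.67 in adult LG, 4.88, 5.49 and 6.08 in adult HG, -1.81, -2.90 and -1.76 in LG epithelium and 4.54, 3.60 and 4.13 in HG epithelium. HG was high at both ages, and the shift was -2.96 ± 0.72 (limma adjusted p = 0.00275). In E16.5 mesenchyme the LG-minus-HG difference of Gata6 was -0.04. Tbx1, a T-box factor, was detected on all arrays of adult HG and HG epithelium and on none of adult LG or LG epithelium. HG exceeded LG by at least 2.99-fold in the adult and at least 8.65-fold in the epithelium, and the shift was 0.73 ± 0.55 (limma adjusted p = 0.301). Without adult HG replicate 1 it was 1.25 (limma adjusted p = 0.028), and with the common floor Tbx1 was unsorted (-0.57).

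Aqp5, the water channel of serous secretory cells, kept an LG bias that widened by 2.77 ± 0.46 (limma adjusted p = 7.73e-05). Its levels were 6.71 and 7.14 in adult LG, 1.95, 1.81 and 1.75 in adult HG, 0.53, 0.24 and 0.18 in LG epithelium and -1.88, -1.89 and -2.22 in HG epithelium. Both glands were higher in the adult than in the embryo, and LG was higher at each age. Aqp3, a channel for water and glycerol, was kept by HG and shifted by -7.30 ± 0.70. It had -3.04 and -4.30 in adult LG, against 6.20, 5.59 and 6.14 in adult HG. The other kept LG genes named were Ucma, a secreted matrix protein (4.33 ± 0.84), Itprid1 (3.53 ± 0.75) and Ceacam10 (1.85 ± 0.87, limma adjusted p = 0.0939). For Itprid1 and Ceacam10 adult HG was not above background, and with the common floor their shifts were 2.30 and -1.17.

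Melanin enzymes were kept by HG. Dct had levels of -4.81 and -4.81 in adult LG, 5.05, 4.66 and 4.90 in adult HG, -4.92, -4.01 and -3.31 in LG epithelium and -0.84, 0.36 and 1.41 in HG epithelium. Tyrp1 was below background in LG at both ages and had 2.08, 0.94 and 0.81 in adult HG and -3.59, -2.48 and -1.82 in HG epithelium. The shifts were -5.29 ± 0.62 and -2.21 ± 0.59, the common floor gave Tyrp1 -3.64 and sorted it as gained by HG, and in E16.5 mesenchyme the LG-minus-HG difference was -5.00 for Dct and -6.07 for Tyrp1. Of 19 pigment cell and glia markers 10 had a lower (52.6 percent) and 3 a higher shift (15.8 percent), against 27.1 and 18.1 percent of all genes. Their mean level ran from -2.17 to -2.13 in adult LG, -0.26 to 0.15 in adult HG, -2.63 to -2.44 in LG epithelium and -1.96 to -1.37 in HG epithelium. The part of pigment cells in these results was not tested. Anxa8, an annexin, shifted by -2.40 ± 0.58, and a second probe gave -1.28. Gm1987 was kept with no called change (-0.45 ± 0.63, limma adjusted p = 0.588), nor with the common floor (-1.08).

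The shift was called for 36 of the 88 kept LG genes, of which 30 widened and 6 narrowed, and for 66 of the 179 kept HG genes, of which 50 widened and 16 narrowed. The median absolute bias of the kept LG genes was 1.81 in the adult and 1.54 in the epithelium, and that of the kept HG genes 2.18 in the adult and 1.77 in the epithelium. S100a8, an inflammatory calcium-binding protein, widened furthest on the HG side named (-9.45 ± 0.62), with background in adult LG and 6.89, 6.42 and 6.28 in adult HG. Fcmr, an IgM receptor (-8.70 ± 0.71), and Aadac, an arylacetamide deacetylase (-7.88 ± 0.68), were next, and Fcmr was sorted as gained with the common floor (-8.63). On the LG side Tox3, a chromatin factor (6.80 ± 0.52), Hid1, of Golgi trafficking (6.69 ± 0.38), and Mkx, a homeobox factor (5.89 ± 0.43), widened. The common floor gave 4.47, 6.69 and 3.92, and Mkx was sorted as gained. Hid1 had 7.13 and 7.32 in adult LG, 0.26, -0.82 and -0.85 in adult HG, 2.79, 2.56 and 2.73 in LG epithelium and 1.85, 1.56 and 1.64 in HG epithelium.

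Narrowed genes included Cdh13, T-cadherin, which had -0.88 and -0.70 in adult LG, 1.50, 1.22 and 0.45 in adult HG, -3.82, -3.51 and -3.69 in LG epithelium and 0.44, 1.08 and 1.29 in HG epithelium. HG was about level between ages while LG was higher in the adult, and the shift was 2.76 ± 0.45 (limma adjusted p = 6.66e-05). Chrdl1, a BMP antagonist, narrowed by 2.72 ± 0.33, with adult LG below background, and was sorted as lost with the common floor (2.66). Me3, a mitochondrial malic enzyme, gave 3.49 ± 0.38 but was below background in LG epithelium, and with the common floor its shift was -0.65. Sfrp1, a secreted Wnt antagonist, was among the 6 kept LG genes that narrowed (-1.04 ± 0.32, limma adjusted p = 0.0135). It had -0.18 and -0.09 in adult LG against -1.57, -0.72 and -1.42 in adult HG, and 4.45, 4.36 and 4.12 in LG epithelium against 2.21, 2.47 and 1.82 in HG epithelium.

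A bias present in the epithelium was lost for 87 LG genes (0.533 percent) and 129 HG genes (0.79 percent). Of the 87 lost LG genes 45 were still detected on all arrays of both adult glands and 32 on all arrays of neither. Of the 129 lost HG genes 29 were so detected in both adult glands and 92 in neither. The same shares over all tested genes were not counted, so these counts are not a trait of lost genes. Chrm3, the muscarinic receptor that drives fluid secretion, was detected in both adult glands. Its levels were 0.96 and 1.43 in adult LG, 0.84, 1.21 and 1.49 in adult HG, -1.42, -1.35 and -1.83 in LG epithelium and -6.10, -5.31 and -5.03 in HG epithelium. The adult glands overlapped, the epithelia did not, and HG epithelium was below background on every array, at least 9.16-fold under LG epithelium. The shift was -3.93 ± 0.61 (limma adjusted p = 4.53e-05), and -1.22 with the common floor.

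Itga4, an integrin subunit, was measured in all groups, with -1.24 and -2.29 in adult LG, -0.56, -2.08 and -3.32 in adult HG, 3.18, 3.03 and 3.12 in LG epithelium and -1.85, -0.51 and -1.18 in HG epithelium. Only LG epithelium stood high, and the shift was -4.07 ± 0.69 (limma adjusted p = 0.000113). Irx6, a homeobox factor, had 1.08, 1.23 and 1.23 in LG epithelium and a shift of -3.85 ± 0.78. Lgsn, a lens protein related to glutamine synthetase, had -5.27 ± 0.90, but -1.53 with the common floor, being above background on no array of adult LG or HG epithelium. Kcnmb1, a potassium channel subunit (-4.67 ± 0.83), and Stac2 (-4.71 ± 0.68) were near background in several groups, and with the common floor their shifts were -0.08 and 0.00 and no longer called.

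On the lost HG side the leading gene was Dkk4, a secreted Wnt antagonist and target of Wnt signalling in ectodermal placodes. It had levels of -5.61 and -5.10 in adult LG, -5.11, -5.21 and -4.85 in adult HG, -5.96, -5.74 and -5.27 in LG epithelium and 1.26, 0.81 and 1.15 in HG epithelium. HG epithelium stood alone, and neither adult gland was above background on any array. The shift was 6.42 ± 0.75 (limma adjusted p = 1.64e-06), and 3.85 with the common floor. Ccn6, a matricellular protein (5.65 ± 0.62), Cpne4, a copine (5.50 ± 0.61), A930009A15Rik (4.99 ± 0.71) and the chemokine Cxcl2 (4.80 ± 0.83) were likewise above background in HG epithelium alone, by at least 8.33-, 12.6-, 6.25- and 4.38-fold over LG epithelium. Tmem132b shifted by 4.73 ± 0.74. With the common floor the shifts were 0.69 for Ccn6, which was then unsorted, 1.31 for Cpne4, 1.86 for Tmem132b, and 0.28 for A930009A15Rik and 0.17 for Cxcl2, which were no longer called.

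In the canonical Wnt pathway beta-catenin binds TCF and LEF factors and raises a set of targets that includes feedback antagonists. Of 23 measured genes of a Wnt response list 13 had a higher (56.5 percent) and 1 a lower shift (4.35 percent), with a median of 1.71. Over all genes the shares were 18.1 and 27.1 percent. Of the list 5 were sorted as lost HG and 3 as reversed LG. The 3 reversals, Lef1, Sp5 and Axin2, were below background on every array of both adult glands, so their adult LG bias rests on the unequal background described above. Lef1, a DNA-binding partner of beta-catenin, had -5.14, -5.85 and -5.24 in LG epithelium, against 0.26, 0.11 and 0.41 in HG epithelium. Sp5, a direct target, had -2.66, -2.37 and -2.50 in LG epithelium, against 3.04, 2.75 and 3.24 in HG epithelium. Their shifts were 7.03 ± 0.62 and 6.85 ± 0.56, and with the common floor they were 3.03 and 5.52 and both genes sorted as lost HG. Of the list, 15 genes were above background on no adult LG array and 11 on no adult HG array. In the epithelia 2 were above background on no LG array and 1 on no HG array. The same counts over all tested genes were not made. Adult LG had fewer spots above background than the epithelia, and most groups behind the filter were embryonic. These counts are therefore not a trait of this list. The mean level was -2.58 to -2.35 in adult LG, -3.32 to -2.74 in adult HG, -1.30 to -0.92 in LG epithelium and 0.36 to 0.69 in HG epithelium. Tnfrsf19, a receptor of the TNF family, differed from Lef1 and Sp5. It was high in both epithelia and, of the adult glands, in LG alone, and was sorted as gained by LG. It had 2.33 and 3.17 in adult LG, -3.86, -3.33 and -5.14 in adult HG, 4.19, 4.07 and 4.69 in LG epithelium and 4.50, 4.28 and 4.71 in HG epithelium, a shift of 7.04 ± 0.65 (limma adjusted p = 7.17e-08), and a second probe gave 3.33.

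Reversed genes numbered 88 that leaned to LG in the adult (0.539 percent) and 84 that leaned to HG (0.515 percent). Of the 88, 46 were detected on all arrays of neither adult gland, and of the 84, 3 were. Here too the share over all tested genes was not counted. Fzd10, a Wnt receptor, gave a reversal measured on all arrays but 1 of adult HG. Its levels were 0.68 and 1.36 in adult LG, -2.56, -3.77 and -3.80 in adult HG, -1.84, -2.74 and -2.55 in LG epithelium and 2.41, 1.87 and 1.95 in HG epithelium. The shift was 8.86 ± 0.48 (limma adjusted p = 8.75e-11), and the gene stayed reversed with the common floor (8.18). Serpinb11, a serpin, had 4.59 and 5.03 in adult LG, -0.79, -1.47 and -5.18 in adult HG, background in LG epithelium and -0.64, -0.94 and -0.88 in HG epithelium. Its shift was 13.20 ± 1.22, and 8.44 with the common floor.

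Foxa1, a forkhead factor, had 4.42 and 5.02 in adult LG, -2.28, -4.29 and -5.14 in adult HG, -5.36, -7.18 and -6.65 in LG epithelium and -3.93, -3.94 and -3.30 in HG epithelium. The adult difference was the larger, the embryonic one lay near background, and the shift was 11.30 ± 0.92 (limma adjusted p = 1.51e-08). With the common floor Foxa1 was sorted as gained by LG (7.33). Msln, mesothelin (6.80 ± 0.95), Creg2 (6.48 ± 0.76) and Fbp1, a gluconeogenic enzyme (5.18 ± 0.50), completed the 6. Under the common floor Msln stayed reversed (3.18), whereas Creg2 was unsorted (1.39) and Fbp1 was lost HG (2.94), both being above background on no adult HG array. Their adult LG levels were low, at -0.32 and -2.24 for Msln, -2.23 and -1.79 for Creg2 and -1.78 and -2.40 for Fbp1.

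Of those that leaned to HG in the adult, Crispld2, a secreted lipopolysaccharide-binding protein, was measured throughout. It had levels of 1.32 and 1.58 in adult LG, 4.97, 3.56 and 3.52 in adult HG, 7.00, 6.98 and 7.16 in LG epithelium and 2.08, 3.60 and 2.72 in HG epithelium. LG was high in the embryo and low in the adult, while HG moved less and the other way, from a mean of 2.80 in epithelium to 4.02 in the adult. The shift was -6.81 ± 0.55 (limma adjusted p = 1.29e-08), and a second probe gave -7.06. Tmigd1, an adhesion protein of epithelia, had -0.40 and -0.07 in adult LG, 4.40, 4.88 and 5.08 in adult HG, 0.65, 0.63 and 1.105 in LG epithelium and -3.13, -2.02 and -2.04 in HG epithelium, a shift of -8.21 ± 0.57. Here HG changed between ages more than LG did. Cldn22, a claudin (-11.44 ± 1.43), was the one whose adult LG arrays disagreed. Alkal2, a ligand of the ALK receptor (-6.47 ± 0.65), Zfp385b (-6.56 ± 0.37) and Slc6a2, the noradrenaline transporter (-5.73 ± 0.59), were the others. A second Zfp385b probe gave -0.18. The common floor left Zfp385b gained by HG (-1.70) and Slc6a2 reversed (-3.71).

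Other regulators fell into several classes. Of 44 measured gland regulators 8 had a higher (18.2 percent) and 7 a lower shift (15.9 percent), with a median of 0.41. Sox10, a factor of glandular buds and neural crest, was gained by HG: it had 2.62 and 2.11 in adult LG, 4.94, 5.66 and 5.32 in adult HG, 6.08, 6.14 and 6.24 in LG epithelium and 5.58, 5.43 and 5.49 in HG epithelium. Adult LG was the one low group, and the shift was -3.59 ± 0.43 (limma adjusted p = 2.19e-06). Sox9 was gained by LG (1.72 ± 0.36, limma adjusted p = 0.000873). Foxc2, a forkhead factor of periocular tissue, was gained by LG (3.61 ± 0.51). No shift was called for Pax6 (0.30 ± 0.70), Foxc1 (0.56 ± 0.47), Barx2 (-1.50 ± 0.72, limma adjusted p = 0.0971) or Fgf10 (-2.40 ± 1.05, limma adjusted p = 0.0727), all known from lacrimal bud formation. Those 2 near misses depended on single arrays: Barx2, whose second probe gave -2.78, was called without adult LG replicate 1 (-2.38, limma adjusted p = 0.016), and Fgf10 without adult HG replicate 3 (-2.98, limma adjusted p = 0.029) or HG epithelium replicate 3 (-3.03, limma adjusted p = 0.025). Pitx1, sorted as lost HG at 3.60, lost its call without adult LG replicate 1 (1.61, limma adjusted p = 0.32).

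Among FGF response genes Spry2, a feedback inhibitor, was gained by LG with a shift of 5.12 ± 0.72, or 2.73 with the common floor. It had 0.18 and -0.18 in adult LG and -3.76, -5.64 and -6.10 in adult HG, with both epithelia between -1.26 and -0.25. Etv1, an ETS factor downstream of FGF, gave 3.24 ± 0.34, whereas Dusp4, a phosphatase of the same pathway, gave -2.17 ± 0.27 and Shisa2 -2.95 ± 0.30. Of 14 measured members 3 were higher (21.4 percent) and 4 lower (28.6 percent), close to the 18.1 and 27.1 percent of all genes. Of 30 fluid secretion genes 7 were higher (23.3 percent) and 10 lower (33.3 percent, median -0.31), also near the shares of all genes. Adra1a, an adrenergic receptor, was gained by LG (3.84 ± 0.81, or 1.27 with the common floor, being above background in adult LG alone). The water channel Aqp8 was gained by HG (-2.95 ± 0.73).

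The mesenchyme of the same embryonic glands entered the contrast of no class, although its arrays shared the fit's estimate of the spread and the filter on dim probes. Over all genes the LG-minus-HG difference in E16.5 mesenchyme was called higher for 6.46 percent and lower for 7.85 percent. Of the kept LG genes 24 of 88 were higher in LG mesenchyme (27.3 percent) and 13 lower (14.8 percent). Of the lost LG genes 20 of 87 were higher (22.99 percent) and 9 lower (10.3 percent). Kept HG genes were lower in LG mesenchyme for 72 of 179 (40.2 percent) and higher for 14 (7.82 percent). Lost HG genes gave 49 of 129 lower (38.0 percent) and 11 higher (8.53 percent). The bias in epithelium was thus accompanied by a bias of the same direction in mesenchyme in these shares of the genes. Calls in the opposite direction were also above the share of all genes in each of these classes, most so for kept LG genes. Gained genes were close to the background of all genes, with 7.41 percent higher and 7.66 percent lower for gained LG genes and 7.76 percent higher and 8.99 percent lower for gained HG genes. Reversed genes were called in the direction of the embryonic epithelium for 23.9 percent of those that leaned to adult LG and 28.6 percent of those that leaned to adult HG, and in the other direction for 10.2 percent and 21.4 percent. Transfer of tissue between the 2 preparations of a gland was not tested. Single genes differed: Slc6a2 was higher in LG epithelium but had a mesenchymal LG-minus-HG difference of -6.74 (limma adjusted p = 1.6e-09), and Six2 was kept by LG in epithelium but was lower in LG mesenchyme (-2.54, limma adjusted p = 0.00046).

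**Figure D4:**
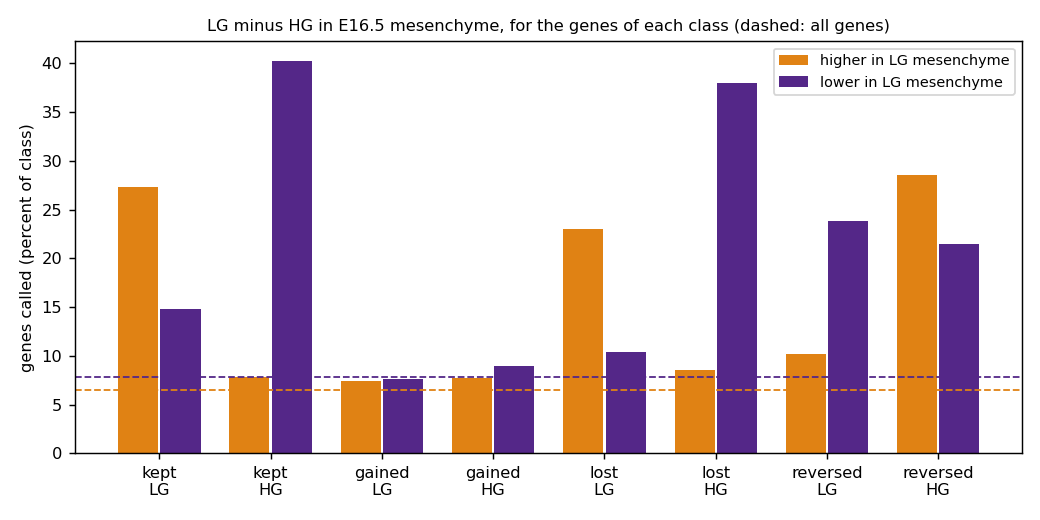
Percent of genes (y axis), for each class and gland (x axis), whose LG-minus-HG difference in E16.5 mesenchyme was called higher (orange) or lower (purple). Dashed lines give the shares over all genes, 6.46 and 7.85 percent, and the kept and lost HG classes reach 40.2 and 38.0 percent lower.

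Markers of other cell types were compared with all genes, of which 18.1 percent had a higher and 27.1 percent a lower shift. In bulk tissue fewer cells of a type and less RNA per cell cannot be told apart. Of 39 measured mesenchymal markers 11 had a lower (28.2 percent) and 3 a higher shift (7.69 percent, median -0.63), 9 being gained and 9 kept by HG. Their mean level was -0.10 to 0.21 in adult LG, 0.94 to 1.92 in adult HG, 0.29 to 0.51 in LG epithelium and 0.57 to 1.47 in HG epithelium. Of 18 endothelial markers 10 were lower (55.6 percent) and none higher (median -1.37). Cldn5, an endothelial claudin, had -2.80 and -2.51 in adult LG, 1.95, 1.91 and 2.11 in adult HG and -1.80 to -0.42 over both epithelia, a shift of -4.05 ± 0.47 (limma adjusted p = 1.39e-06). Of 40 epithelial markers 4 were higher and 4 lower (median -0.01). Of 26 myeloid and lymphoid markers 5 were higher (19.2 percent) and none lower (median 0.82), including Itgax (2.67 ± 0.81), which neither epithelium had above background, and Ptprc (1.67 ± 0.53), which was not called with the common floor (1.02). Neither held without adult LG replicate 1 (1.72, limma adjusted p = 0.12, and 1.22, limma adjusted p = 0.11). Skeletal muscle markers had mean levels of -3.98 to -3.92 in adult LG and -4.19 to 0.24 in adult HG, where replicate 1 was the high one for Myh2 (1.99, against -2.24 and -3.47). The part of these cell types in the gained class was not tested.

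The Y-linked genes Ddx3y and Eif2s3y were above background on no adult array and on all arrays of both epithelia. By these genes male tissue was present in the embryonic samples and not detected in the adult ones, so sex and age cannot be told apart. Their shifts were 0.92 ± 0.39 (limma adjusted p = 0.0634) and 0.92 ± 0.33 (limma adjusted p = 0.0289) with both adult glands at background, and -0.19 and -0.15, neither called, with the common floor. Xist, the X-inactivation transcript, was above background in every group and had a shift of -0.20 ± 0.42.

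**Figure D5:**
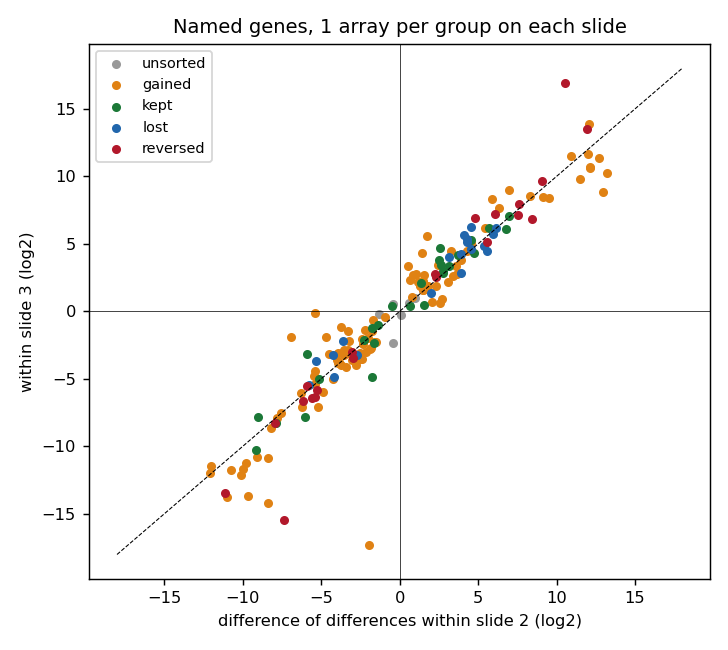
Shift of the named genes within slide 2 (x axis, log2) against slide 3 (y axis, log2), from 1 array per group on each slide, coloured by class. The dashed line marks equality, and nearly all called genes lie where both values have the same sign. The point farthest from the line is Bpifa6, whose adult LG arrays disagreed.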

How the data were processed

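Total RNA was hybridised in 1 colour (Cy3) to Agilent arrays of 59305 spots, per the labels' protocols. The deposited scanner files hold the intensity of each spot, background-subtracted by Agilent Feature Extraction, and yes-or-no flags for spots well above background. The tool is version 11.5.1.1 per the submitters' processing notes, and version 11.0.1.1 for the arrays of slide 1, per the file headers. The authors' deposited table of processed intensity equals the mean of these signals with no scaling between arrays.

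Outlier spots were left out, spots of a probe averaged, and log2 signals scaled by subtracting each array's 75th percentile. A probe was kept if some group had it detected throughout, that is with a share of 0.5 or more of its spots well above background on each array, and the brightest probe stood for a gene. Of 55681 probes 27509 were named through RefSeq accessions, which gave 20887 symbols, and 28172 were not. All 23 arrays in 8 groups entered 1 limma fit (version 3.58.1, R 4.3.3), with p-values adjusted by Benjamini-Hochberg over 16324 genes. The fit was tested on simulated data with independent noise and the same background in both glands. That test does not cover the unequal background or the deviations shared by slide in these arrays. Where a group is below background, a fold is given as a lower limit, taken against the lowest signal well above background on each array. Promoter sequences are from RefSeq.

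Named were the leading genes of each class and gland (8 gained, 6 lost, 6 reversed, 6 kept, and the widest and most narrowed kept genes) whose arrays did not overlap between glands, and up to 4 sorted members per gene list. The members and lists were chosen with earlier results of these data known. Alternatives covered scaling, background correction, filters, probe choice, blocks, fold thresholds and each array left out. Of these, a common floor under all arrays and a demand that the brighter group be detected were chosen after seeing the data. The number of arrays limits the precision. Some genes are not reported here.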

Additional observations from a re-analysis of the deposited data

Results flagged for a closer look

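Results are listed here because the LG-minus-HG difference itself differed between adult and embryonic epithelium in limma's test of that difference. Over all genes, the shift was called higher for 2950 and lower for 4427.

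The 6 leading genes with opposite bias at the 2 ages were, on the adult LG side, Serpinb11 (13.20), Foxa1 (11.30), Fzd10 (8.86), Msln (6.80), Creg2 (6.48) and Fbp1 (5.18), and on the adult HG side Cldn22 (-11.44), Tmigd1 (-8.21), Crispld2 (-6.81), Zfp385b (-6.56), Alkal2 (-6.47) and Slc6a2 (-5.73), each value being the shift on the log2 scale. Creg2, Fbp1, Foxa1 and Zfp385b left the reversed class with the common floor. Mogat1 (-12.37), Lef1 (7.03) and Sp5 (6.85) were among further genes sorted as reversed, described with their gene lists. No group of the comparison held 4 arrays, so none was examined for a single array far from its group.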

How the results depend on the processing

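Genes with a higher shift (2950) numbered 1473 with median scaling, 4677 with normexp background correction and 5031 with no filter on dim probes, and their count was within 1.5 times the stated one under the other alternatives. Kept genes (267) numbered 127 with normexp, 58 with a 4-fold threshold and 148 with the common floor. Lost genes (216) numbered 106 with normexp, 143 with only the 11 arrays fitted and 111 at 4-fold. With only the 11 arrays fitted, 2235 shifts were called higher and 3228 lower, which is 5463 calls against 7377. Reversed genes (172) numbered 69 with normexp, 306 with no fold threshold, 31 at 4-fold and 88 with the common floor, and gained genes (4803) 2087 at 4-fold. With the common floor the share that stayed in class was 73.1 percent of gained LG and 85.7 percent of gained HG genes, 47.7 of kept LG and 52.5 of kept HG, 71.3 of lost LG and 33.3 of lost HG, and 30.7 of reversed LG and 71.4 of reversed HG. Leaving out each array in turn gave 2417 to 3058 higher and 3653 to 4714 lower shifts, 4536 to 4831 gained, 203 to 319 kept, 168 to 244 lost and 137 to 203 reversed genes. The sign turned for Eif2s3y (-0.072 with quantile normalization, -0.15 with the common floor), Cdh19 (0.16) and Des (0.20) with normexp, Eaf2 (0.74 with the mean of all probes), and Ceacam10 (-1.17), Me3 (-0.65) and Nefh (-0.10) with the common floor. Of 175 named genes, 143 kept direction and call with the common floor, 160 with normexp and 164 with median scaling. The causes were not tested. With the common floor the smallest shares that stayed in class were those of reversed LG and lost HG genes. The part of signal near background in this was not tested.

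With the replicate block, 3327 shifts were higher and 4742 lower, with 4848 gained, 284 kept, 202 lost and 188 reversed genes, and Ddx3y and Lcp1 became called (0.92 and 0.85). Deviations of same-numbered arrays correlated from 0.17 to 0.58 between the epithelia and from -0.12 to 0.38 between adult HG and the epithelia, but from -0.34 to 0.20 with adult LG, whose numbers run apart from the slides, so the numbers do not pair all 4 groups. By slide, adult LG correlated from 0.29 to 0.40. With slide as a block, 3518 were higher and 5199 lower.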

Other observations

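Retinoid genes moved in both directions. Of 18 measured retinoic acid genes 8 had a lower (44.4 percent) and 3 a higher shift (16.7 percent, median -0.90), against 27.1 and 18.1 percent of all genes. Aldh1a1, a retinaldehyde dehydrogenase, kept an HG bias, with 2.12 and 1.26 in adult LG, 4.54, 5.26 and 4.97 in adult HG, -1.02, -1.18 and -1.21 in LG epithelium and 0.65, 0.30 and 0.16 in HG epithelium. Both glands were higher in the adult, HG was above LG at each age, and the bias widened, with a shift of -1.72 ± 0.34 (limma adjusted p = 0.000445). The related Aldh1a2 was gained by HG (-3.40 ± 0.83), whereas Rxra, a nuclear receptor partner of the retinoic acid receptors, was gained by LG (2.89 ± 0.43), although a second probe gave -0.69. Clu, clusterin, had lost an HG bias, with 6.07 and 5.86 in adult LG, 5.57, 6.49 and 7.04 in adult HG, 3.07, 3.15 and 3.39 in LG epithelium and 5.58, 5.55 and 5.91 in HG epithelium. The adult glands overlapped and the epithelia did not (2.07 ± 0.37, limma adjusted p = 0.00018).

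Cell cycle genes were split, 9 higher (28.1 percent) and 12 lower (37.5 percent) of 32 (median -0.43). Over all genes the shares were 18.1 percent higher and 27.1 percent lower. Top2a, a topoisomerase of dividing cells, was level in the epithelia (3.73 to 3.85 in LG and 3.84 to 3.87 in HG) and lower in both adult glands, at -1.60 and -0.90 in LG and -3.38, -3.03 and -5.12 in HG (shift 2.67 ± 0.52, limma adjusted p = 0.000403). Mcm3, a replication helicase subunit, went the other way (-1.69 ± 0.25). Of 14 BMP response genes 6 were higher (42.9 percent) and 2 lower (14.3 percent), 5 being above background on no adult LG array. Id2, a BMP target, was gained by HG (-2.61 ± 0.46), and Grem1, a BMP antagonist, was lost by HG (3.04 ± 0.96), a call not made with the common floor (0.41). Of 13 hedgehog genes 5 were higher (38.5 percent) and none lower, 8 being above background on no adult LG array. Smo, the pathway's transducer, was gained by LG (2.79 ± 0.33), although a second probe gave -0.40. Of 18 Hox genes 8 were higher (44.4 percent) and none lower, but 6 of the 7 gained by LG were below background on at least 1 adult LG array. Pthlh, parathyroid hormone-like hormone, was gained by HG (-5.29 ± 0.51), with adult LG below background and both epithelia measured, and 7 of 20 ectodermal placode genes were higher and 1 lower, 9 being above background on no adult LG array. With the common floor the shift of Pthlh was -3.35 and that of Top2a 1.60.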
